A study of Mus musculus with 13 samples.

Results

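The enzymes and helpers that shape collagen after its translation were examined in mouse gastrocnemius, a calf muscle, as the 10 genes Serpinh1, P4ha1, P4ha2, Plod1, Plod2, Pcolce, Lox, Loxl1, Loxl2 and Loxl3. They were taken by symbol from the table of normalized counts, which lists 21868 genes, and all 10 were among the 12303 genes that passed a filter on low values. RNA came from 13 male C57BL/6 mice, with 1 library each, and the study's legend for its RNA-seq data gives the substrain as C57BL/6N. All of them were 7 weeks old at the start, had 1 week to settle, and ate a diet with 60% of its energy from fat for 15 to 17 weeks before a switch to standard chow. For the following 3 weeks, 5 vehicle-treated mice (mice 1 to 5) received phosphate-buffered saline and placebo, 5 semaglutide-treated mice (mice 13 to 17) received semaglutide at 30 nM/kg/day intraperitoneally and placebo, and 3 semaglutide + ketone ester–treated mice (mice 19, 21 and 22) received the same semaglutide with a ketone ester at 0.114 g/mL in their drinking water. Semaglutide is a GLP-1 receptor agonist that lowers food intake and body weight, and the ketone ester is a precursor of circulating ketone bodies. No group kept on chow throughout and none given ketone ester without semaglutide is analysed here.

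Collagen chains are modified in the endoplasmic reticulum while they fold. Prolyl 4-hydroxylases, whose catalytic subunits are P4ha1 and P4ha2, hydroxylate proline and thereby stabilize the triple helix, lysyl hydroxylases such as Plod1 and Plod2 hydroxylate lysine residues that later take part in crosslinks, and Serpinh1, also called HSP47, is a chaperone that binds the folded triple helix. Outside the cell, Pcolce enhances removal of the C-terminal propeptide by Bmp1-type proteases, and the copper-dependent lysyl oxidases Lox, Loxl1, Loxl2 and Loxl3 oxidize lysine side chains in collagen and elastin so that fibers become crosslinked. In muscle, most of this collagen is made by fibroblasts of the connective tissue sheaths and by tendon cells. The RNA measured here is from whole muscle, so fewer cells of a type and less RNA per cell cannot be told apart.

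The libraries held between 15319471 and 23498162 reads on genes, the highest in semaglutide mouse 17. The titles of all 13 samples shared a prefix, and no batch label is given in the sample labels used here. The skeletal muscle fiber markers were abundant in every mouse, with Myh4 and Acta1 the highest, and the summed level of that list was 2585000 to 3098000 normalized counts with vehicle, 1531000 to 2824000 with semaglutide and 3259000 to 3934000 with ketone ester added. Semaglutide mouse 13 stood apart from the other semaglutide-treated mice, with a limma sample weight of 0.232 against 0.389 to 1.49 in the other 4. Among semaglutide-treated mice it had the highest value of 5 of the 10 genes (Serpinh1, P4ha1, Pcolce, Loxl2 and Loxl3) and the lowest of 2 (Plod2 and Lox). Semaglutide mouse 17 had the lowest value of 5 of the 10 (Serpinh1, P4ha2, Pcolce, Loxl2 and Loxl3). Counts of called genes are therefore also given without mouse 13, and those of the 10 genes also without mouse 15 or 17. Vehicle mouse 1 had the lowest vehicle value of 5 genes (Pcolce, Lox, Loxl1, Loxl2 and Loxl3).

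Semaglutide-treated mice had less RNA of 5 of the 10 genes than vehicle-treated mice, Loxl2, Serpinh1, Pcolce, Loxl1 and Plod1, and more of none (limma on log2(normalized count + 1), adjusted p under 0.05 over all genes tested). Among all genes tested, 13.2% were lower and 11.9% were higher by the same rule. With ketone ester added to semaglutide, Loxl2 was higher than with semaglutide alone, while 9.09% of all genes tested were higher and 9.30% lower. Between semaglutide + ketone ester–treated and vehicle-treated mice none of the 10 genes passed, against 0.0732% of all genes higher and 0.163% lower, with 4 of the 10 at an unadjusted p under 0.05, beside 10.5% of all genes, and 0 of the 10 called by edgeR or DESeq2 on recovered reads. The median log2 fold change over the 10 genes was -0.46 for semaglutide against vehicle, 0.06 for semaglutide + ketone ester against semaglutide and -0.35 for semaglutide + ketone ester against vehicle, beside medians over all genes of -0.0029, -0.0002 and -0.0059. These 3 comparisons share groups, so they are not independent of each other. Without semaglutide mouse 13, 6 of the 10 were lower with semaglutide, P4ha1 joining the 5, and 3 were higher (Serpinh1, Pcolce and Loxl2) and 1 lower (Lox) with ketone ester added. In that fit 18.9% of all genes tested were lower and 17.3% higher with semaglutide, and 16.0% were higher and 16.2% lower with ketone ester added, so more of all genes were called as well. Without semaglutide mouse 15 or 17, 3 of the 10 were lower with semaglutide (Serpinh1, Plod1 and Loxl2). Loxl2 alone was then higher with ketone ester added. Those fits called 1215 and 1120 of 12303 genes lower with semaglutide, and 837 and 742 higher with ketone ester added.

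**Figure D1:**
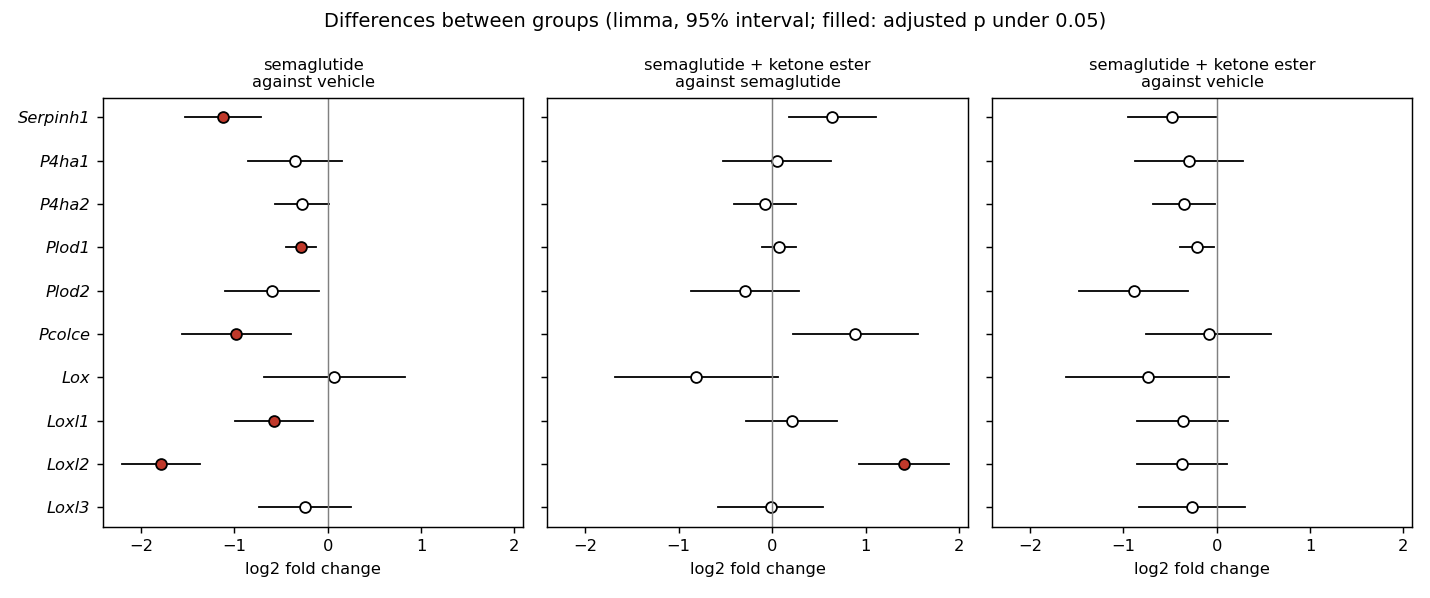
Log2 fold changes of the 10 genes (points) with 95% intervals (lines) on the horizontal axis in the 3 comparisons, from limma on log2(normalized count + 1); filled points have an adjusted p under 0.05. With semaglutide, 5 points are filled and lie left of 0, with ketone ester added only that of Loxl2 is filled and lies right of 0, and in the third panel all 10 open points lie left of 0.

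Levels were set against exon length to compare genes with each other. In vehicle-treated mice Serpinh1 led with 340.4 ± 48.5 normalized counts per kb of exon (SD, n = 5), followed by P4ha1 with 213 ± 45.3 and Pcolce with 112 ± 23.1. Plod1 (84.9 ± 3.30), P4ha2 (81.2 ± 8.98) and Loxl1 (68.7 ± 15.0) came next, then Lox (35.1 ± 14.8) and Loxl2 (25.8 ± 4.61), with Loxl3 (11.2 ± 3.03) and Plod2 (10.7 ± 3.07) lowest. The range of Serpinh1 in vehicle-treated mice did not overlap that of P4ha1, nor did the range of P4ha1 overlap that of Pcolce. Neighbors from Pcolce down to Loxl2 overlapped in range, as did Loxl3 and Plod2. In semaglutide-treated mice P4ha1 (174 ± 69.5 per kb) lay above Serpinh1 (161 ± 48.9 per kb), in 4 of 5 mice and with overlapping ranges, and Loxl2 (7.50 ± 2.31 per kb) had passed below Loxl3 (9.42 ± 2.64 per kb) in all 5 mice. In semaglutide + ketone ester–treated mice the order of the 10 means was that of vehicle-treated mice, but Lox (20.1 per kb) and Loxl2 (19.9 per kb) overlapped and Lox was the higher in only 1 of 3 mice.

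**Figure D2:**
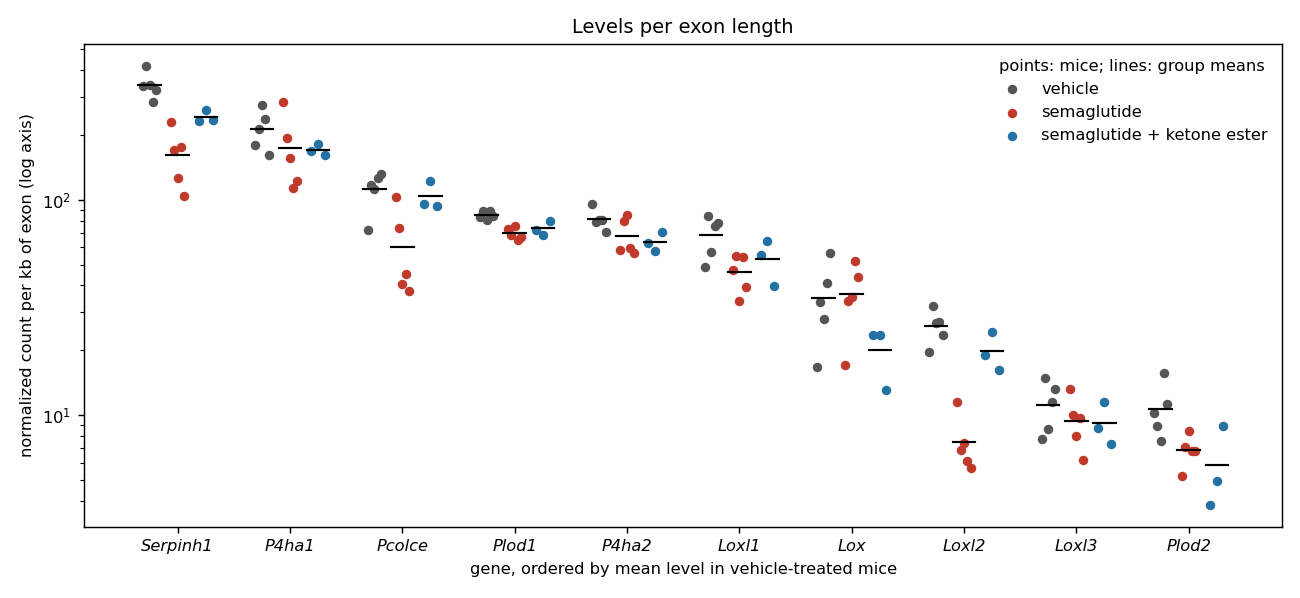
Normalized count per kb of exon on a log axis for each gene, ordered by the vehicle mean; points are mice and lines are group means. Serpinh1 is highest in vehicle-treated mice at 340.4 per kb and Plod2 lowest at 10.7 per kb, and Loxl2 of the semaglutide-treated mice lies below that of both other groups.

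The chaperone Serpinh1 (ENSMUSG00000070436.12, chr7:99345376-99353239, minus strand, GRCm38) was at 824, 1021, 829, 696 and 788 normalized counts in vehicle mice 1 to 5, at 561, 417, 307, 429 and 253 in semaglutide mice 13 to 17, and at 565, 640 and 574 in semaglutide + ketone ester mice 19, 21 and 22. All semaglutide-treated mice lay below all vehicle-treated mice, and the 3 mice given ketone ester lay between them, above every semaglutide-treated mouse and below every vehicle-treated mouse. Semaglutide mouse 13, at 561, came within 4 counts of the lowest mouse given ketone ester. The log2 fold change of semaglutide against vehicle was -1.12 (SE 0.19, limma adjusted p = 0.0018), and all 22 alternatives tried kept this call. The difference between semaglutide + ketone ester and semaglutide was 0.64 (SE 0.22, 95% interval 0.18 to 1.11, limma adjusted p = 0.055) and did not pass. It passed in 6 of 22 alternatives, among them edgeR (adjusted p = 0.045) and DESeq2 (adjusted p = 0.025) on recovered reads and the fit without semaglutide mouse 13 (0.79, limma adjusted p = 0.0076). Semaglutide + ketone ester against vehicle gave -0.48 (SE 0.22, limma adjusted p = 0.47).

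P4ha1 (ENSMUSG00000019916.14, chr10:59323296-59373304, plus strand) was the more abundant prolyl 4-hydroxylase subunit. It was at 736, 873, 1131, 975 and 665 normalized counts in vehicle mice 1 to 5, at 1172, 795, 644, 467 and 502 in semaglutide mice 13 to 17, and at 695, 750.1 and 660 in the 3 mice given ketone ester. The groups overlapped, since semaglutide mouse 13 had the highest value of all 13 mice and mouse 16 the lowest. The log2 fold change with semaglutide was -0.35 (SE 0.23, 95% interval -0.85 to 0.15, limma adjusted p = 0.29), and without mouse 13 it was -0.55 (limma adjusted p = 0.036). The difference on adding ketone ester was 0.05 (95% interval -0.53 to 0.63).

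P4ha2 (ENSMUSG00000018906.14, chr11:54100095-54131665, plus strand) was at 596, 492, 501, 502 and 441 normalized counts in vehicle mice 1 to 5, at 364, 497, 532, 373 and 353 in semaglutide mice 13 to 17, and at 394, 360.0 and 441 in the mice given ketone ester. Semaglutide mice 14 and 15 lay among the vehicle-treated mice and the other 3 below them. The mice given ketone ester lay below all vehicle-treated mice, by under 1 count in the closest case. No comparison passed, with log2 fold changes of -0.27 for semaglutide (SE 0.13, limma adjusted p = 0.15) and -0.35 for the combination (SE 0.15, limma adjusted p = 0.46), both against vehicle. The ratio of P4ha1 to P4ha2 counts was 1.74 ± 0.393 in vehicle-treated, 1.74 ± 0.842 in semaglutide-treated and 1.78 ± 0.294 in semaglutide + ketone ester–treated mice, given here without a test.

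The lysyl hydroxylase Plod1 (ENSMUSG00000019055.15, chr4:147909753-147936767, minus strand) varied least of the 10 among vehicle-treated and among semaglutide-treated mice. It was at 564, 598, 547, 597 and 566 normalized counts in vehicle mice 1 to 5, at 495, 462, 509, 441 and 453 in semaglutide mice 13 to 17, and at 491, 464 and 538 in the mice given ketone ester. No mouse of the other groups reached the lowest vehicle value of 547. The change with semaglutide was small, -0.28 on the log2 scale (SE 0.072, limma adjusted p = 0.015), with a coefficient of variation among vehicle-treated mice of 3.89%. It did not pass when columns were rescaled to equal totals (-0.11, limma adjusted p = 0.24), a scaling that moved the median of all genes by 0.17. Semaglutide + ketone ester against vehicle gave -0.21 (SE 0.083, limma adjusted p = 0.4), and against semaglutide 0.08 (95% interval -0.11 to 0.26).

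Plod2 (ENSMUSG00000032374.14, chr9:92542223-92608428, plus strand), which hydroxylates lysines in the collagen telopeptides, was among the scarcest of the 10. It was at 54.9, 48.2, 40.8, 84.3 and 60.5 normalized counts in vehicle mice 1 to 5, at 28.1, 38.3, 45.5, 36.9 and 36.6 in semaglutide mice 13 to 17, and at 20.7, 26.6 and 48.1 in the mice given ketone ester. Only semaglutide mouse 15 and ketone ester mouse 22 lay inside the vehicle range, the other mice of those groups being below it. Neither difference from vehicle passed, at -0.60 for semaglutide (SE 0.23, limma adjusted p = 0.077) and -0.89 for the combination (SE 0.27, limma adjusted p = 0.25). The second had the lowest unadjusted p of the 10 genes in its comparison, 0.0059. The first passed in 2 of 22 alternatives, with only the 2 groups compared (limma adjusted p = 0.049) and without ketone ester mouse 22, which enters only through the shared estimate of spread (limma adjusted p = 0.04). The counts rest on 17 to 76 reads per mouse.

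**Figure D3:**
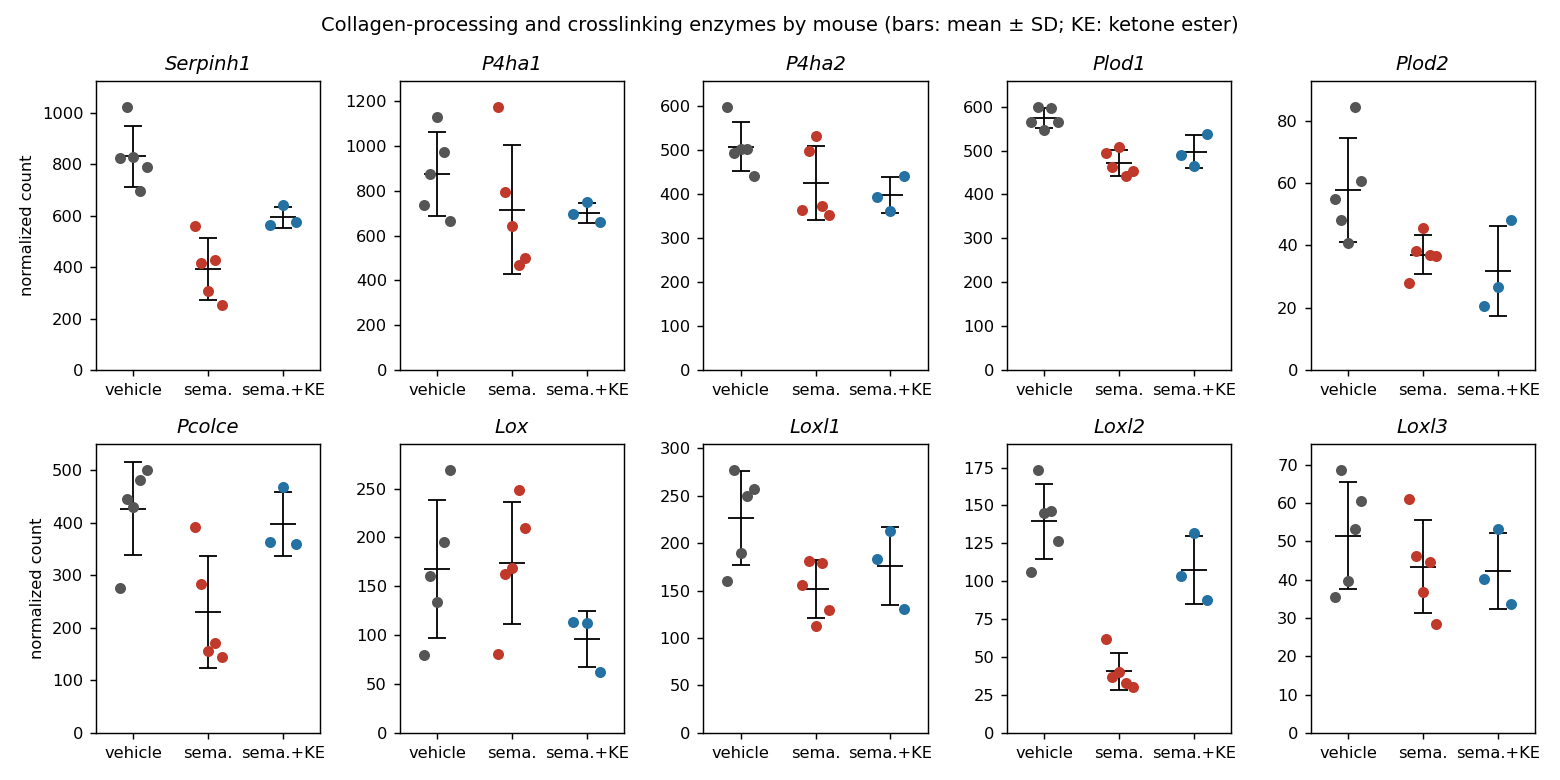
Normalized count of each of the 10 genes (vertical axes from 0) in vehicle-treated, semaglutide-treated (sema.) and semaglutide + ketone ester–treated (sema.+KE) mice; each point is a mouse and bars are the mean ± SD. Semaglutide-treated mice lie below all vehicle-treated mice for Serpinh1, Plod1 and Loxl2, and Lox spreads from 80.1 to 269 among vehicle-treated mice. The share of all genes tested whose groups lie apart in this way was not computed.

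For Serpinh1 and Plod1, which were both lower with semaglutide in every mouse and have a window in the promoter table (RefSeq, GRCm38.p6; windows were at hand for 5 of the 10 genes), the 250 bases before the transcription start are shown 5′ to 3′ on the gene's strand, Serpinh1 at chr7:99353240-99353489 and Plod1 at chr4:147936777-147937026, both minus strand. Capitals mark each match, on either strand, to the hypoxia response core ACGTG, its variant core GCGTG, the CCAAT box, the GC box GGGCGG, the TATA box TATAAA and the SMAD core CAGAC. A heat shock element pair, GAA and TTC with 2 bases between them, was also searched.
Serpinh1: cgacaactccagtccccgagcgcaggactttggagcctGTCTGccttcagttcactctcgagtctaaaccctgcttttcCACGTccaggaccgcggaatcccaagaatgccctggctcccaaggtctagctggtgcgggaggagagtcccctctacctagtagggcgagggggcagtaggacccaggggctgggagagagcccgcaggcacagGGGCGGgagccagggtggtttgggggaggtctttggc
Plod1: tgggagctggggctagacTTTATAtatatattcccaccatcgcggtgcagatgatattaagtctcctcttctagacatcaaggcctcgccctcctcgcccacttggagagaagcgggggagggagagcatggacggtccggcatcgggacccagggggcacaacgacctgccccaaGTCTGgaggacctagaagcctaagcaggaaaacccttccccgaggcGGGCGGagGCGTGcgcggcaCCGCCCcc
The Serpinh1 window held 1 SMAD core, 1 ACGTG core and 1 GC box, the last at 37 to 32 bases before the start. The Plod1 window held 1 TATA box sequence, 1 SMAD core, 1 GCGTG core and 2 GC boxes. Its TATA box sequence lay 232 to 227 bases before the start, as the reverse complement. Its GC boxes lay at 28 to 23 and 8 to 3 bases before the start. Neither window held the heat shock pair or the CCAAT box, and no matches overlapped. Over the 32851 windows in the table, each searched in the same 250 bases before the start, 42.2% held the SMAD core, 16.6% the ACGTG core, 28.2% the GCGTG core, 32.7% the GC box, 12.4% the TATA box, 33.8% the CCAAT box and 6.69% the heat shock pair. The windows of Serpinh1 and Plod1 had 63.6% and 61.6% G and C, against a median of 52.4%. Those of P4ha1, P4ha2 and Pcolce had 69.6%, 70% and 58.8%. The shares of windows with a match were not adjusted for G and C content. The prolyl hydroxylase windows held more hypoxia cores, with 1 ACGTG and 2 GCGTG matches in each of P4ha1 and P4ha2, and that of Pcolce held 1 GCGTG. These are matches of letters only, and their part in the RNA levels was not tested.

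Pcolce (ENSMUSG00000029718.14, chr5:137605103-137613784, minus strand), the enhancer of procollagen C-propeptide removal, was at 277, 445, 431, 481 and 501 normalized counts in vehicle mice 1 to 5, at 393, 283, 156, 172 and 145 in semaglutide mice 13 to 17, and at 364, 468 and 359 in the mice given ketone ester. Semaglutide mice 15, 16 and 17 lay below all vehicle-treated mice, while mice 13 and 14 lay above vehicle mouse 1, the lowest of its group. The log2 fold change with semaglutide was -0.98 (SE 0.27, limma adjusted p = 0.02). Without semaglutide mouse 15 the limma adjusted p was 0.052, and without mouse 17 it was 0.054. On adding ketone ester the difference was 0.89 (SE 0.31, 95% interval 0.22 to 1.56, limma adjusted p = 0.062), and without semaglutide mouse 13 it was 1.11 (limma adjusted p = 0.0061). Semaglutide + ketone ester against vehicle gave -0.09 (95% interval -0.75 to 0.58, limma adjusted p = 0.97). In the GENCODE M21 annotation, 112 of the 3823 exon bases of Pcolce are shared with Fbxo24 on the same strand.

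Among the lysyl oxidases, Loxl2 (ENSMUSG00000034205.16, chr14:69609068-69695834, plus strand), which also acts on type IV collagen of basement membranes, had the largest log2 fold change of the 10 genes both with semaglutide and on adding ketone ester to it. It was at 106, 173, 145, 146 and 127 normalized counts in vehicle mice 1 to 5, at 61.9, 37.2, 40.0, 33.0 and 30.6 in semaglutide mice 13 to 17, and at 103, 132 and 87.7 in the mice given ketone ester. Every semaglutide-treated mouse lay below every mouse of both other groups, and the mice given ketone ester overlapped the vehicle range. With semaglutide the log2 fold change was -1.79 (SE 0.19, limma adjusted p = 0.00016), and on adding ketone ester it was 1.41 (SE 0.22, limma adjusted p = 0.0025). Both calls held in all 22 alternatives, with ranges of -1.95 to -1.62 and 1.18 to 1.57. Semaglutide + ketone ester against vehicle gave -0.37 (SE 0.22, 95% interval -0.86 to 0.11, limma adjusted p = 0.63). In semaglutide-treated mice the values rest on 33 to 64 reads.

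Loxl1 (ENSMUSG00000032334.10, chr9:58287738-58313186, minus strand), the family member most tied to elastic fibers, was at 160, 277, 189, 249 and 257 normalized counts in vehicle mice 1 to 5, at 156, 181, 112, 179 and 129 in semaglutide mice 13 to 17, and at 183, 213 and 131 in the mice given ketone ester. Semaglutide mice 13, 15 and 17 lay below all vehicle-treated mice, and mice 14 and 16 lay between vehicle mice 1 and 3. The log2 fold change with semaglutide was -0.57 (SE 0.19), just past the threshold at a limma adjusted p = 0.047. It did not pass in 11 of 22 alternatives. The limma adjusted p was 0.11 without vehicle mouse 2, 0.054 without vehicle mouse 3, and 0.099 and 0.098 without vehicle mice 4 and 5. It was 0.11 without semaglutide mouse 15 or 17, and 0.059 without ketone ester mouse 19. The rest of the 11 were no filter on low values, rescaling to equal totals, quantile normalization and only the 2 groups compared. The highest limma adjusted p among the 11 was 0.17. The difference on adding ketone ester was 0.21 (95% interval -0.28 to 0.69).

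Lox (ENSMUSG00000024529.14, chr18:52516067-52529867, minus strand), the founding lysyl oxidase, was at 80.1, 160.1, 134, 195 and 269 normalized counts in vehicle mice 1 to 5, at 81.2, 162, 169, 249 and 210 in semaglutide mice 13 to 17, and at 113, 112 and 62.5 in the mice given ketone ester. Vehicle-treated and semaglutide-treated mice covered nearly the same range, each with 1 mouse near 80 counts, and the mice given ketone ester lay in its lower part or below it. The log2 fold change with semaglutide was 0.07 (SE 0.35, 95% interval -0.68 to 0.83, limma adjusted p = 0.9), and it turned negative without vehicle mouse 1 (-0.16), semaglutide mouse 16 (-0.08) or semaglutide mouse 17 (-0.02). On adding ketone ester it was -0.81 (SE 0.40, limma adjusted p = 0.17), and without semaglutide mouse 13 it was -1.06 (limma adjusted p = 0.04).

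Loxl3 (ENSMUSG00000000693.10, chr6:83034173-83052562, plus strand) was at 35.5, 68.6, 39.6, 53.2 and 60.5 normalized counts in vehicle mice 1 to 5, at 60.9, 46.2, 36.7, 44.7 and 28.3 in semaglutide mice 13 to 17, and at 40.1, 53.2 and 33.7 in the mice given ketone ester. All 3 groups overlapped. The log2 fold changes were -0.24 (95% interval -0.73 to 0.25) with semaglutide and -0.02 (95% interval -0.58 to 0.55) on adding ketone ester. On the opposite strand, exons of Htra2 share 535 of the 4603 exon bases of Loxl3, and whether counting used strand is not given in the sources used here.

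The makeup of the lysyl oxidase family was also taken per exon length, as the share of each of the 4 genes in their summed level. Loxl2 made up 18.8% ± 3.37 of the summed family level in vehicle-treated mice, 7.82% ± 3.14 in semaglutide-treated and 19.6% ± 1.72 in semaglutide + ketone ester–treated mice. The share of Lox was 24.2% ± 5.79, 36.4% ± 11.0 and 19.4% ± 2.51 in the same order. Loxl1 held 49.1% ± 2.70, 46.2% ± 6.02 and 52.0% ± 0.053, and Loxl3 between 7.93% and 9.64% on average. Semaglutide-treated mice had Loxl2 shares of 5.01% to 12.9%, all below the lowest vehicle share of 13.7%, and the mice given ketone ester lay between 17.8% and 21.3%. The Lox shares overlapped between vehicle-treated and semaglutide-treated mice. Semaglutide mice 13 (19.1%) and 14 (32.1%) lay within the vehicle range of 18.1% to 32.9%. The summed family level was 141 ± 33.1, 99.3 ± 15.0 and 102 ± 24.1 per kb. These shares were chosen after the values were seen and are given without a test, and an increase of one share comes with a decrease of others.

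**Figure D4:**
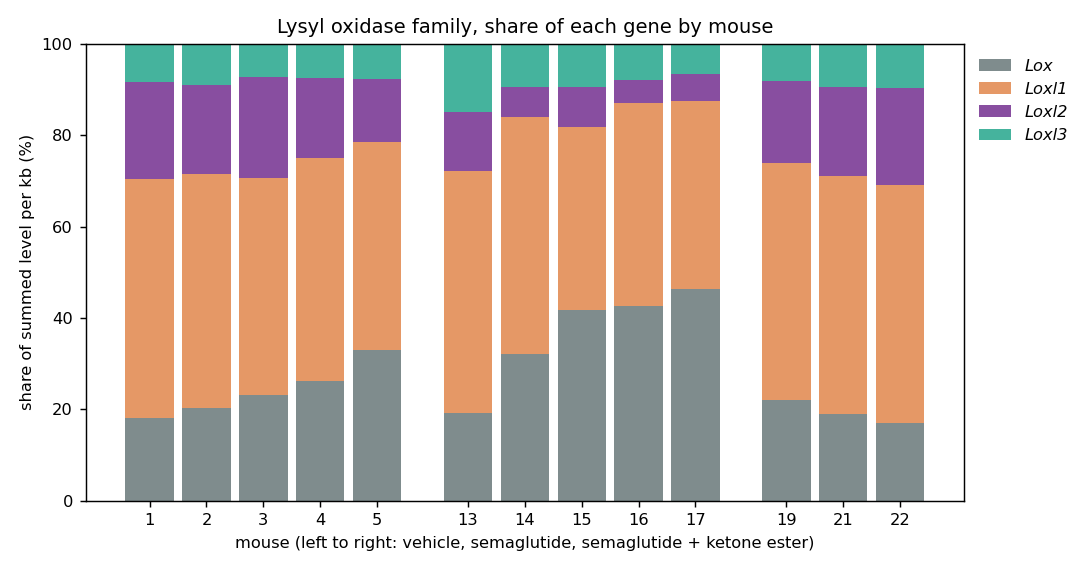
Share of Lox, Loxl1, Loxl2 and Loxl3 in the summed lysyl oxidase family level per kb of exon (vertical axis, %) in each mouse. The Loxl2 segment is 5.01% to 12.9% in semaglutide mice 13 to 17 and 13.7% to 22.2% in vehicle mice 1 to 5.

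The study's methods call a gene altered when a one-way analysis of variance over the groups has p under 0.05, without adjustment, and group means span a factor of 1.5 or more. That held for 4 of the 10 genes (Serpinh1, Plod2, Pcolce and Loxl2), against 16.1% of all genes tested. The ratio of highest to lowest group mean was 3.44 for Loxl2, 2.12 for Serpinh1, 1.86 for Pcolce and 1.82 for Plod2. Loxl1 missed the criterion at a ratio of 1.497, and Plod1 passed the p but had a ratio of 1.22. The criterion held for 3 of the 10 without semaglutide mouse 13. Its share over all genes tested was not computed without that mouse.

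Other genes of collagen modification moved in both directions. Of 29 listed, 28 were in the table and 25 were tested, of which 2 were higher and 8 lower with semaglutide, 3 higher and 2 lower on adding ketone ester. Between semaglutide + ketone ester and vehicle limma called 0, with 2 at an unadjusted p under 0.05. The median log2 fold changes were -0.10, 0.07 and -0.09. P4hb, protein disulfide isomerase and the shared second subunit of prolyl 4-hydroxylases, was higher with semaglutide, from 2908 ± 208 to 5565 ± 1391 normalized counts (0.90, SE 0.16, limma adjusted p = 0.0022), and lower with ketone ester added, at 3030 ± 302 (-0.84, SE 0.18, limma adjusted p = 0.0092). Its catalytic partners P4ha1 and P4ha2 passed in neither comparison, with point estimates of -0.35 and -0.27 with semaglutide. Tmem38b, an endoplasmic reticulum cation channel, had the same course as P4hb, at 0.46 (limma adjusted p = 0.0091) and -0.54 (limma adjusted p = 0.011). Sparc, a collagen-binding secreted glycoprotein, was lower with semaglutide (-0.87, limma adjusted p = 0.00045) and higher with ketone ester added (0.66, limma adjusted p = 0.007). Bmp1, the C-propeptide protease that Pcolce enhances, followed Sparc with -0.89 (limma adjusted p = 0.004) and 0.75 (limma adjusted p = 0.023).

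The remaining named genes of that list were lower with semaglutide without passing on the addition of ketone ester. Adamts2, which removes the N-terminal propeptide, was at -0.76 (limma adjusted p = 0.0039) and then 0.47 (limma adjusted p = 0.069). P3h3, of the prolyl 3-hydroxylase family, was at -0.81 (limma adjusted p = 0.014), and Fkbp7, a peptidyl-prolyl isomerase of the endoplasmic reticulum, at -0.66 (limma adjusted p = 0.027). Creb3l1, a transcription factor that drives collagen genes in osteoblasts and fibroblasts, stood at 72.4 ± 19.3 normalized counts in vehicle-treated, 29.4 ± 8.42 in semaglutide-treated and 32.6 ± 6.55 in semaglutide + ketone ester–treated mice. Its log2 fold change was -1.29 with semaglutide (limma adjusted p = 0.0021), 0.18 on adding ketone ester (limma adjusted p = 0.66), and -1.10 between the combination and vehicle (limma adjusted p = 0.11). Crtap and Colgalt2 completed the 8 lower genes, and Crtap the 3 higher ones. Without semaglutide mouse 13, the counts were 3 higher and 8 lower, then 5 higher and 3 lower.

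Most of the collagens on which these enzymes act were lower with semaglutide. Of 10 fibrillar and fibril-associated collagen genes tested, 9 were lower with semaglutide (median -1.42) and 7 were higher with ketone ester added (median 1.41), with 0 called by limma between semaglutide + ketone ester and vehicle (median -0.14, 1 at an unadjusted p under 0.05). Col3a1 went from 1581 ± 399 normalized counts to 198 ± 127 with semaglutide and stood at 1147 ± 483 with ketone ester (log2 fold changes -3.14, limma adjusted p = 0.00026, and 2.64, limma adjusted p = 0.0028), and Col5a3 was at -1.26 (limma adjusted p = 4e-04) and 0.63 (limma adjusted p = 0.036). Col3a1 counts per Serpinh1 count were 1.93 ± 0.566, 0.474 ± 0.159 and 1.91 ± 0.679 in vehicle-treated, semaglutide-treated and semaglutide + ketone ester–treated mice, and Col3a1 counts per Loxl2 count were 11.2 ± 1.87, 4.64 ± 1.71 and 10.4 ± 2.24. Col1a1 counts per Serpinh1 count were 1.80 ± 0.665, 0.472 ± 0.193 and 2.44 ± 0.954. These ratios were chosen after the values were seen and are given without a test. In semaglutide-treated mice the Col3a1 to Serpinh1 ratio was at most 0.736, and its lowest value in vehicle-treated mice was 1.07. The Col1a1 to Serpinh1 ratio overlapped between these groups, since semaglutide mouse 13, at 0.791, lay above vehicle mouse 1, at 0.742. Without semaglutide mouse 13, all 10 collagens were lower with semaglutide and 9 were higher with ketone ester added.

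**Figure D5:**
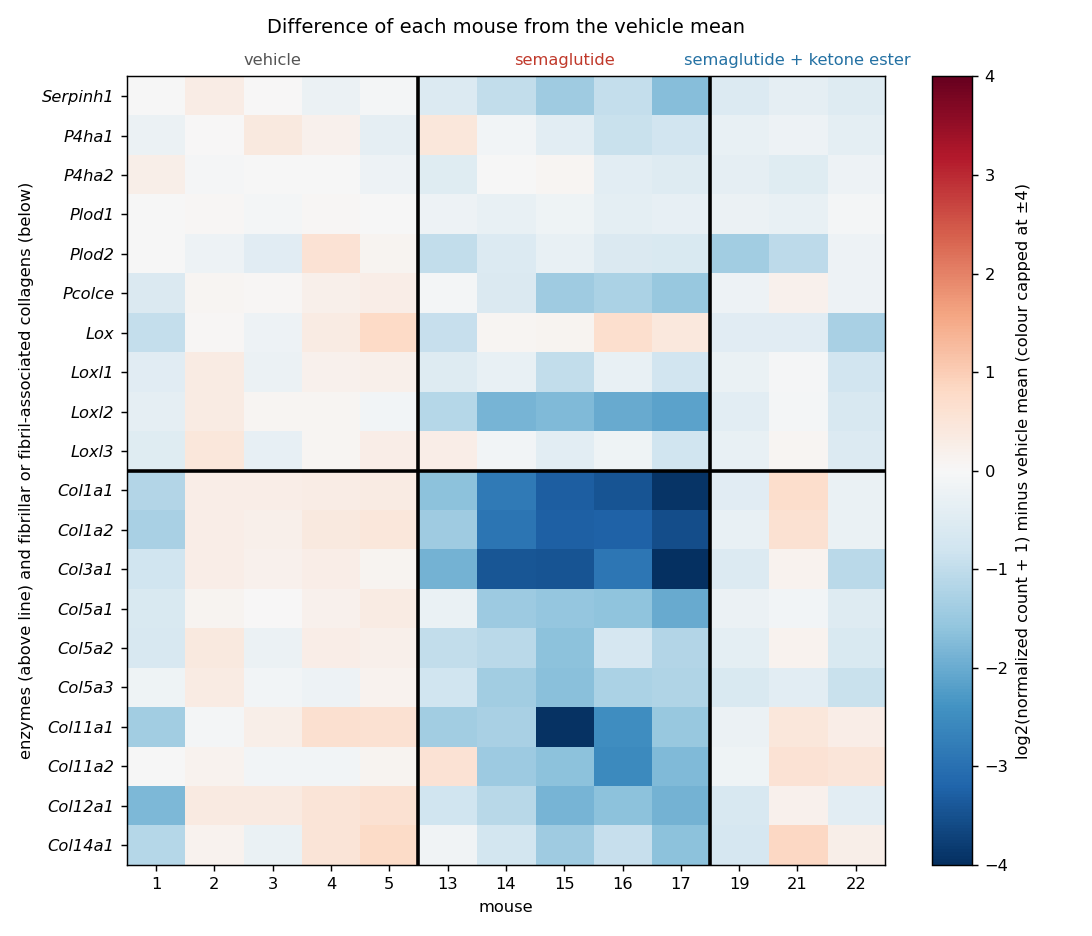
Difference of each mouse from the vehicle mean in log2(normalized count + 1), by colour from -4 (dark blue) to 4 (dark red), for the 10 enzymes above the line and 10 fibrillar or fibril-associated collagens below it. In semaglutide mice 14, 16 and 17 the darkest blue is at Col1a1, Col1a2 or Col3a1 and in mouse 15 at Col11a1, and among the enzymes it is at Loxl2 in all 5 semaglutide-treated mice.

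Elastic fiber genes, whose elastin is also crosslinked by lysyl oxidases, gave 5 of 14 lower with semaglutide (median -0.53), 5 higher with ketone ester added (median 0.54) and 1 lower between semaglutide + ketone ester and vehicle (median 0.01). Fbn1, the main protein of microfibrils, was at -1.71 (limma adjusted p = 0.00022) and 1.07 (limma adjusted p = 0.008), and the microfibril-associated Mfap5 at -1.04 (limma adjusted p = 0.0011) and 0.58 (limma adjusted p = 0.044). Elastin itself, Eln, was lower with semaglutide (-0.62, limma adjusted p = 0.0073) and lower than vehicle with ketone ester added (-0.87, limma adjusted p = 0.048), which made it the 1 gene of the list in that comparison, and it is named because the count is 1. The group means of Eln were 396 ± 89.2, 254 ± 30.8 and 213 ± 12.6 normalized counts. Without ketone ester mouse 21, 0 of 12303 genes were lower between semaglutide + ketone ester and vehicle, so the call of Eln did not hold. Without semaglutide mouse 13 the counts were 6 lower and 8 higher.

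Hypoxia-inducible genes, among which P4ha1, P4ha2, Plod2 and Lox are often counted, did not move one way. Of 20 other such genes tested, 2 were higher and 2 lower with semaglutide (median 0.03), 3 were higher and 3 lower with ketone ester added (median 0.16), and limma called 0 between semaglutide + ketone ester and vehicle (median -0.10, 2 at an unadjusted p under 0.05). Egln1, an oxygen-sensing prolyl hydroxylase, was lower with semaglutide (-0.50, limma adjusted p = 0.0091), and Bhlhe40, a transcriptional repressor, was higher with ketone ester added (0.96, limma adjusted p = 0.014). Without semaglutide mouse 13 the counts were 5 higher and 7 lower, then 8 higher and 5 lower. Of 15 TGF-beta genes tested, a list of ligands, receptors and response genes, 2 were higher and 3 lower with semaglutide (median -0.02). The 2 higher ones were receptors and the 3 lower ones response genes. With ketone ester added, 2 were higher and 1 lower (median 0.06). Limma called 0 between semaglutide + ketone ester and vehicle (median -0.20, 1 at an unadjusted p under 0.05). Fn1, fibronectin, was at -1.53 (limma adjusted p = 0.0022) and 1.41 (limma adjusted p = 0.0094), while the receptor Tgfbr2 was higher with semaglutide (0.52, limma adjusted p = 0.02) and at 0.14 on adding ketone ester (limma adjusted p = 0.59). In the fit without semaglutide mouse 13, 2 of these TGF-beta genes were higher and 4 lower with semaglutide, and the counts on adding ketone ester stayed at 2 and 1.

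Most markers in the fibroblast, tendon and mural lists were lower with semaglutide, as were some of the muscle fiber markers given below. Of 8 fibroblast markers, 7 were lower with semaglutide and 6 higher with ketone ester added, and their summed level, led by Dcn and Col3a1, was 5445 to 11820 normalized counts with vehicle, 5179 to 6786 with semaglutide and 6634 to 10320 with ketone ester added. Vehicle mouse 1, at 5445, lay within the semaglutide range. Of 7 tendon markers, 5 were lower with semaglutide, and 2 were higher and 1 lower with ketone ester added, with sums, led by Fmod and Thbs4, of 1288 to 7308, 756 to 2822 and 3464 to 4333. Vehicle mouse 1 was again lowest of its group at 1288, and semaglutide mouse 13 highest of its group at 2822. Of 6 mural markers, 4 were lower with semaglutide and 1 was higher with ketone ester added, with sums, led by Rgs5 and Myh11, of 7098 to 9341, 4334 to 6250 and 7094 to 7901. The fibroblast counts were again 7 lower and 6 higher without semaglutide mouse 13, the tendon counts were 5 lower, then 5 higher and 1 lower, and the mural counts 4 lower and 2 higher. The fibroblast list shares Col3a1 and Mfap5 with the collagen and elastic fiber lists. The part of cell content in the enzyme levels was not tested.

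Skeletal muscle fiber markers gave 4 of 10 lower with semaglutide and 6 higher with ketone ester added, and 5 and 7 without semaglutide mouse 13. Red blood cell markers gave 0 of 5 called by limma with semaglutide (all 5 lower at an unadjusted p under 0.05) and 4 higher with ketone ester added, with sums, led by Hbb-bs and Hba-a1, of 1356 to 2291, 50.5 to 3148 and 2849 to 5558, and without semaglutide mouse 13 all 5 were lower and then higher. Endothelial markers gave 0 and 1 of 6 in the same comparisons, and 0 and 2 without that mouse, with Cdh5 and Pecam1 highest and sums of 3716 to 4519, 3796 to 4378 and 3975 to 4784. Limma called 0 of the immune, adipocyte and satellite cell markers in any comparison, with or without that mouse, and with all 13 mice 1 adipocyte marker was at an unadjusted p under 0.05. Their sums in the same group order were 288 to 906, 337 to 1214 and 362 to 765 for macrophage and other immune markers (Csf1r and C1qa highest), 3344 to 7020, 1763 to 19450 and 3753 to 4596 for adipocyte markers (Fabp4 and Cfd highest), and 64.1 to 96.5, 55.9 to 96.9 and 64.9 to 104 for satellite cell markers (Pax7 and Myf5 highest). The adipocyte sum of 19450 and the immune sum of 1214 were both those of semaglutide mouse 16. The other semaglutide-treated mice reached at most 3785 and 492. Mouse 16 also had the lowest fiber marker sum, 1531000, and a limma sample weight of 0.389. No marker of the lists named here was at 0 in all 13 mice.

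The genes whose levels most resembled those of the called enzymes over the 13 mice were found by Pearson's r of log2 values, as a description over mice that share groups and tissue. Loxl2 was nearest to Col15a1 (r = 0.989), Col3a1 (0.984) and 3830406C13Rik (0.982). Serpinh1 was nearest to Hspg2, the basement membrane proteoglycan perlecan (0.961), then Stard8 (0.947) and Zfp423 (0.943). Pcolce was nearest to Fndc1 (0.976), Sertad4 (0.974) and Cd248, a stromal cell surface protein (0.97). Plod1 was nearest to Fdx1 (0.942), Crip3 (0.918) and Efr3b (0.895), and Loxl1 to Bicc1 (0.92), Stk4 (0.915) and Col5a2 (0.907). With group means removed, the r of the nearest gene was 0.906 for Loxl2, 0.854 for Serpinh1, 0.944 for Pcolce, 0.849 for Plod1 and 0.867 for Loxl1. The collagens Col15a1, Col3a1 and Col5a2 appeared among the nearest genes of the lysyl oxidases Loxl2 and Loxl1, and no collagen appeared among the nearest 3 of Serpinh1, Pcolce or Plod1.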

How the data were processed

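RNA was sequenced from the gastrocnemius of 13 mice in 3 groups (Illumina Stranded mRNA Prep, reads of 59 bp). Per the labels and the study's methods, the authors processed reads with DRAGEN against mm10, and the processing notes also name DESeq2; the counter and annotation are not given in the sources used here. The authors deposited a gene-level signal, normalized counts; every value was a whole number of reads times a factor per mouse (100% within 0.02 reads), so reads could be recovered. Libraries held 15319471 to 23498162 reads on genes, and the total over genes limits precision by counting error only.

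Log2(normalized count + 1) of 12303 genes with a mean of at least 10 was fitted with limma 3.58.1 (R 4.3.3) on all 13 mice and 3 groups, with Benjamini-Hochberg adjustment over all genes and a threshold of 0.05; fold changes of low genes are understated on this scale. The labels call mice separate samples of a group, and p-values measure the spread between them. Replicate libraries differed by more than sampling noise in every pair (chi-square per degree of freedom 8.84 to 144.4). The fit was tested on simulated data. Alternatives were a pseudocount of 5, no filter, rescaling to equal totals, quantile normalization, sample weights, only the groups compared, a variance trend, edgeR 4.0.16 and DESeq2 1.42.0 on recovered reads, and leaving out each mouse. Levels per kb used exon lengths and coordinates of GENCODE M21 (GRCm38), which may not be the annotation counted.

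The members and gene lists were chosen with earlier results of these data known. Named were all 10 members, of other collagen-modifying genes the 8 called with the lowest p, of each other list the 2 with the lowest p, of marker lists the 2 highest (1 further marker list is not reported here), and for each called member the 3 genes with the highest r; genes named outside this rule were chosen after their values were seen (Eln, Crtap, Colgalt2, Col1a1, Col1a2, Fbxo24 and Htra2). Exons on the opposite strand also overlap Plod2 (346 bases), Pcolce (112), Lox (30) and Loxl2 (301).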

Additional observations from a re-analysis of the deposited data

How the results depend on the processing

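Of 660 alternative values of the 10 genes' log2 fold changes, 614 kept direction and side of the threshold, 15 passed newly, 14 no longer passed and 17 changed sign, none of them called. With columns rescaled to equal totals, which moved the median of all genes by 0.17, -0.24 and -0.07 in the 3 comparisons, 3 genes were lower with semaglutide (Serpinh1, Pcolce and Loxl2) rather than 5. All genes called then split into 3262 higher and 929 lower rather than 1459 and 1625 with semaglutide, and 611 and 3587 rather than 1118 and 1144 with ketone ester added (4198 in all). On adding ketone ester, P4ha1 (-0.18), Plod1 (-0.16) and Loxl1 (-0.027) changed sign there, P4ha1 also with edgeR (-0.022) and DESeq2 (-0.024), and Loxl3 with sample weights (0.22). Of the 10 genes, those higher on adding ketone ester numbered 2 with quantile normalization or edgeR, rather than 1. They numbered 3 with sample weights, a variance trend or DESeq2. More of all genes were higher in these settings as well, rather than 1118. They were 1150 with quantile normalization, 1202 with edgeR, 2060 with sample weights, 1234 with a variance trend and 1355 with DESeq2.

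Leaving out 1 mouse at a time gave 3 to 6 genes lower with semaglutide (3 without semaglutide mouse 15 or 17), 1 to 3 higher and 0 to 1 lower on adding ketone ester, with 3 and 1 only without semaglutide mouse 13, and 0 called against vehicle. Signs changed for Lox with semaglutide (-0.16 to 0.32), and on adding ketone ester for P4ha1 (-0.081 to 0.25), P4ha2 (-0.15 to 0.015) and Loxl3 (-0.19 to 0.13). All genes called numbered 2065 to 4450 with semaglutide, 861 to 3959 on adding ketone ester and 1 to 77 for semaglutide + ketone ester against vehicle. With sample weights they were 4847, 4279 and 205, with only the compared groups 751 on adding ketone ester, and against vehicle 4 without a filter, 45 with a variance trend or edgeR and 171 with DESeq2. The cause of these changes was not tested. Replicate numbers are not shared between groups. No paired analysis was possible because the groups compared share fewer than 2 replicate numbers. The genes with the fewest reads, Plod2, Loxl2 and Loxl3, are the most limited by depth.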
